A study of Mus musculus with 6 samples.

Results

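The solute carrier (Slc) genes encode membrane transporters, and 74 of them could be measured one by one in subcutaneous mouse tumours with and without a knockout of Uhrf1 in the cancer cells. They were chosen from the 385 protein-coding Slc and Slco genes among 22028 protein-coding genes of the GENCODE vM21 annotation. A gene was kept where a row of the count files covered at least 50 bp of its exons and of no other gene's, and held at least 60 counts over the 6 tumours. The gene then takes the values of its most-counted row. No test between the groups entered that choice, but the tumours of a single group could supply all the counts, as for Slc28a3 and Slc9a4.

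The tumours grew from LG1233-OVA, a murine lung cancer line, of which female C57BL/6 mice received 1000000 cells subcutaneously, and were collected on day 27. The 3 sgNT tumours came from control cells labelled as wild type, and the 3 sgUhrf1 tumours from stable lines in which CRISPR/Cas9 was used to knock Uhrf1 out. The labels give neither the guide sequences nor the number of clones nor the age of the mice. The labels number 3 biological replicates per group without stating that each is a separate mouse, so p-values measure the spread between these tumours. RNA was taken from whole tumours, so host cells contribute to every value, and fewer cells of a type cannot be told apart from less RNA per cell.

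Solute carriers move nutrients, ions and metabolites across the plasma membrane and across the membranes of mitochondria, peroxisomes, the endoplasmic reticulum and vesicles. Most work as exchangers, cotransporters or facilitators driven by gradients that ATP-consuming pumps set up. Epithelia such as gut and kidney use sets of carriers on their 2 faces to absorb and secrete, while tumour cells draw amino acids in and lactate out through carriers of the same families. UHRF1 is a nuclear protein known for guiding maintenance methylation of DNA at CG dinucleotides after replication.

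Each library held 5462555 to 6375069 counts, and 16051 to 18771 rows had at least 1 count. Levels are given as CPM (counts divided by library size in units of 1000000, with edgeR's TMM scaling). A tumour with 0 counts could still hold up to 3, or 0.445 to 0.660 CPM. These levels are not divided by length and are compared between tumours only. The most-counted row over Uhrf1 itself held 133, 136 and 98.2 CPM in the sgNT tumours and 121, 73.0 and 89.9 CPM in the sgUhrf1 tumours. The groups overlapped, and edgeR's quasi-likelihood fit gave a log2 fold change of -0.37 ± 0.23 (SE; adjusted p = 0.227). A row over other Uhrf1 exons held 12.0, 19.7 and 9.04 CPM against 6.90, 4.60 and 7.92 CPM, without overlap, with an edgeR adjusted p of 0.0524. A guide-made mutation can leave the transcript in place, so these rows do not check the labels. Skeletal muscle markers, of which 6 of 15 had a row, summed to 497 CPM in sgNT replicate 2 and 415 CPM in sgUhrf1 replicate 1, against 5.14 to 28.6 CPM in the other 4 tumours. For members tested with all 6 tumours whose call changes without those 2, called the muscle-rich pair below, the value without them is given beside the reported one.

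The row names in the files come from a newer genome build than the reads, so each row was renamed by the GRCm38 exons under its coordinates. Of the 74 rows used here, 7 carry the name of the gene they cover and 2 carry the name of another Slc gene. The row named Slc41a1 lies over exons of Slc26a9, and the row named Slc38a2 lies over exons of Slc38a1. A member's row covers 53 to 5510 bp of its exons, with a median of 382 bp and a median of 6.80% of the gene's exon length. The rows therefore sample each gene at one place, and in 60 of 74 at most 50% of the row is exon of that gene. Only 37 of the 74 rows lie wholly inside their gene. Of the remaining Slc genes, 73 had a row of their own under 60 counts, 103 shared every row with another gene, 3 were touched by fewer than 50 bp and 132 lay under no row. The least counted members were Slc52a2, Slc38a6 and Slc25a21 with 61, 62 and 63 counts, and just outside were Slc2a1 and Slc9a7 with 57 counts each.

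Promoter sequences were available from RefSeq for 58 of the 74 genes. Called genes whose RefSeq start coincides with the GENCODE gene start include Slc22a15 and Slc25a13, which are not shown. The sequences of 5 other such genes are shown. Each is the 250 bases before the start on GRCm38.p6, read 5′ to 3′ on the gene's strand, in lower case with every CG dinucleotide in capitals. DNA methylation was not measured in these tumours. The first 3 belong to genes that were higher in sgUhrf1 tumours, at chr13:58610878-58611127 (minus strand) for Slc28a3, chr1:131743772-131744021 (plus strand) for Slc26a9 and chr2:180455995-180456244 (plus strand) for Slco4a1.
Slc28a3: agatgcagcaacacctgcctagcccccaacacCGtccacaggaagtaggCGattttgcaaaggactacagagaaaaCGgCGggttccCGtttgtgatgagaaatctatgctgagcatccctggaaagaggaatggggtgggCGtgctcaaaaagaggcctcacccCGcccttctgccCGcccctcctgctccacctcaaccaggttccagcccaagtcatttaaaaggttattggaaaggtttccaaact
Slc26a9: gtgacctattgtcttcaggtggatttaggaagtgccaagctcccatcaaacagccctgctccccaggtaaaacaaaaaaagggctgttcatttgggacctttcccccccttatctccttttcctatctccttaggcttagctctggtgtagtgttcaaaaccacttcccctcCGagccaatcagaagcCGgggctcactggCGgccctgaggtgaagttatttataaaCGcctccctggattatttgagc
Slco4a1: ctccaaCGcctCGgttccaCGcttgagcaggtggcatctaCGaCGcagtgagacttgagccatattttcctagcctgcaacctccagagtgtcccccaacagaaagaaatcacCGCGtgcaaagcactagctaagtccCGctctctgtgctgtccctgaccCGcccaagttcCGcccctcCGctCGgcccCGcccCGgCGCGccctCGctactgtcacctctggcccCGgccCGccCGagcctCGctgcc

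The other 2 belong to genes that were lower, at chr9:37255739-37255988 (minus strand) for Slc37a2 and chr11:75531444-75531693 (plus strand) for Slc43a2.
Slc37a2: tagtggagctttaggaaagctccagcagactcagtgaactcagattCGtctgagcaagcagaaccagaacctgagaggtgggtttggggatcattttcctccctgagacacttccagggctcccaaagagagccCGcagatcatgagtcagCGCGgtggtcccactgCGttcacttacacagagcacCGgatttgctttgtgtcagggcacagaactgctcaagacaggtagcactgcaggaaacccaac
Slc43a2: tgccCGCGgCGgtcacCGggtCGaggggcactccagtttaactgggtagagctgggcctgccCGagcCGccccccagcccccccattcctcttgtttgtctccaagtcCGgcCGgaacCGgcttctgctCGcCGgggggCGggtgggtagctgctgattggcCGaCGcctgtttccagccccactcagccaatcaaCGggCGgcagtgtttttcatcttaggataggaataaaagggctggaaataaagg

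These windows hold 8 CG dinucleotides for Slc28a3, 4 for Slc26a9, 21 for Slco4a1, 6 for Slc37a2 and 17 for Slc43a2. Over all 32851 RefSeq windows of that length the median was 6, with a range of 0 to 56, and over the 58 matched Slc genes it was 15.5, with a range of 1 to 44. The median was 18.5 over the 14 matched genes called higher, 14 over the 9 called lower and 15 over the 33 tested genes that were not called. High and low CG content thus occurred on both sides of the comparison. The letters ACGTG, searched on both strands, were in 15 of the 58 windows (25.86%) and in 16.57% of all windows. TTCNNNGAA was in 6 of the 58 (10.34%) and in 7.02% of all, and neither motif was in the 5 windows printed above. Among the other such called genes, which were not shown, Slc25a13, Slc25a28 and Slc30a5 had ACGTG in their windows and Slc22a15 had TTCNNNGAA. The window of Slc18b1 had neither.

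The comparison of sgUhrf1 with sgNT tumours asks how transporter RNA differed when the injected cells carried the Uhrf1 knockout. Transporters moved in both directions. Carriers of nucleosides, chloride and sulfate, choline and organic anions were among the largest rises, and carriers of urea, zinc and potassium chloride were among the falls. Sugar phosphate and amino acid carriers were on both sides, with Slc37a1 and Slc7a7 higher and Slc37a2 and Slc7a8 lower. Of 70 members that passed the filter on low counts, 20 were higher in sgUhrf1 tumours (28.6%), 11 were lower (15.7%) and 39 did not pass an adjusted p of 0.05. Among all 10503 tested rows, 20.2% were called higher and 19.7% lower, and among 4240 rows chosen by the same rule for any protein-coding gene, 20.2% and 22.6%. The share called in either direction, 44.3% of the Slc genes, stands beside 39.9% of all rows and 42.8% of the same-rule genes. The median log2 fold change was 0.35 over the Slc genes, -0.04 over the same-rule genes and 0.02 over all rows. The members' share called is near the background, and no test of the list was made.

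The groups did not overlap in any of the 31 called genes, and they also did not overlap in 8 of the 39 others. Non-overlap was found in 24 tested Slc genes upwards and 15 downwards, against 26.6% and 27.8% of all tested rows. Called changes of at least 2 on the log2 scale were 8 rises and 2 falls. The matching shares of all rows were not counted, so these 2 counts cannot be read as particular to Slc genes. Fitted values over all rows ran from -8.89 to 12.3. Without the 2 muscle-rich tumours, which leaves 2 per group, 15 Slc genes were higher and 4 lower, and 17 of the 31 calls were kept. Leaving out 1 tumour at a time gave 18 to 21 higher and 6 to 12 lower. The lower count was 6 without sgNT replicate 2, and 7 when sgNT replicate 3 or either of sgUhrf1 replicates 2 and 3 was left out. No called gene changed sign in any of the 15 other fits that tested it, and 12 of the rises and 3 of the falls passed the threshold in all of them.

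**Figure D1:**
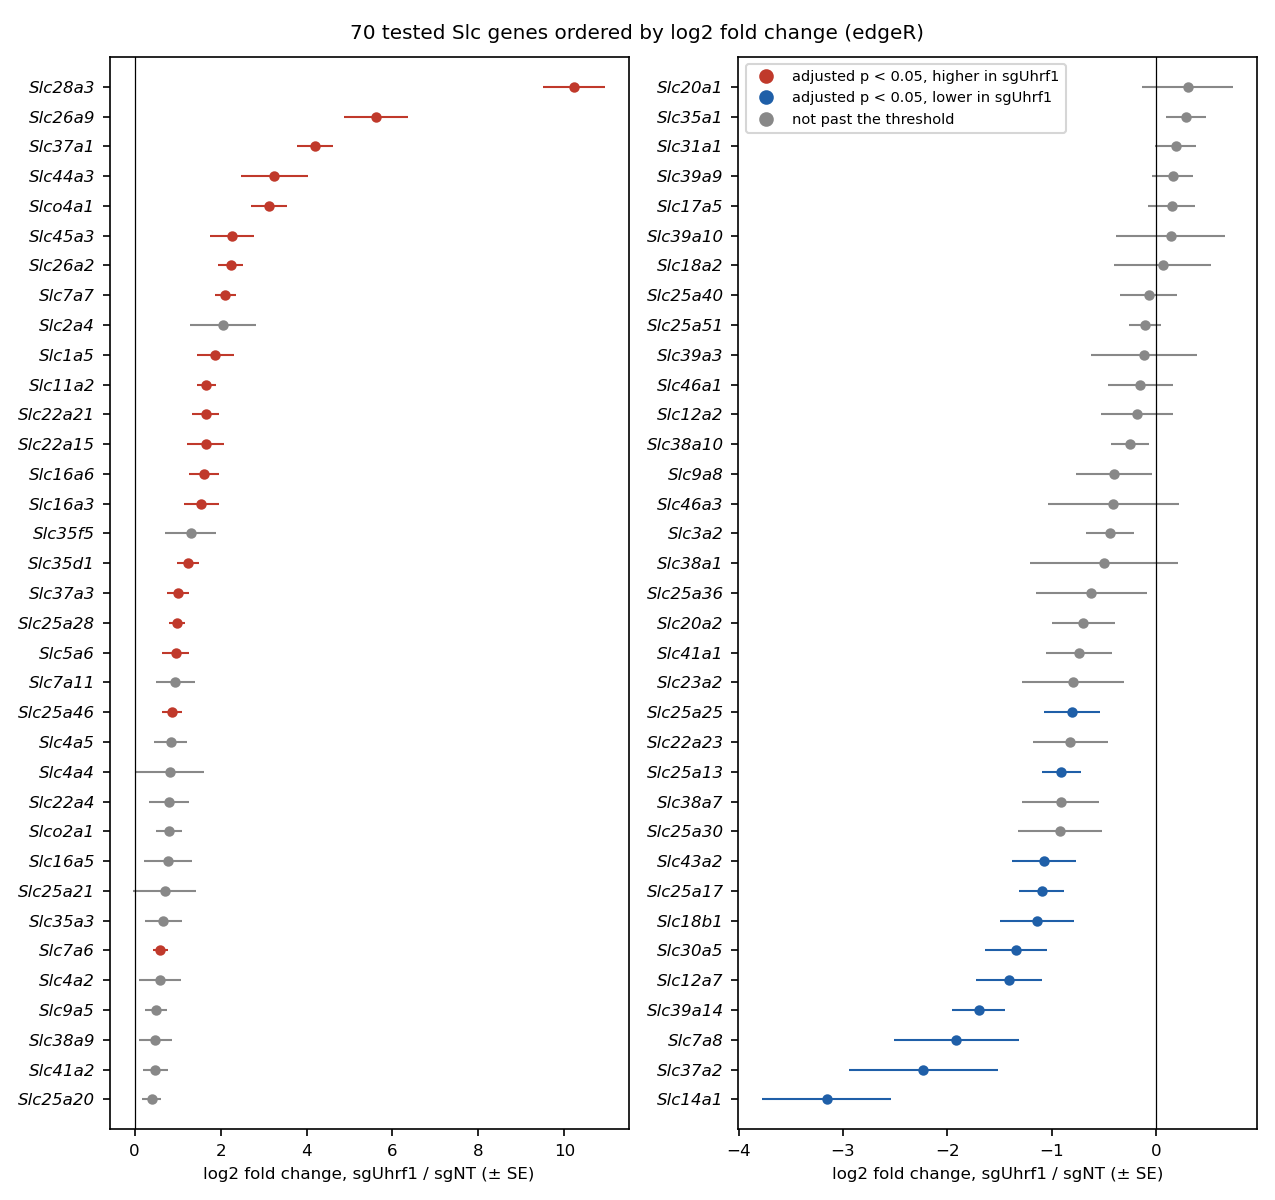
Log2 fold change (sgUhrf1 over sgNT, x axis, with a different scale in each panel) and its standard error for the 70 tested Slc genes, ordered from the largest rise to the largest fall. Red marks the 20 genes called higher, blue the 11 called lower and grey the 39 others, and the fitted value of Slc28a3 depends on the prior count because its 3 sgNT tumours held 0 counts.

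The largest fitted rise of any tested member was in a nucleoside carrier. Slc28a3, a concentrative sodium-coupled nucleoside transporter (chromosome 13, 58545399 to 58610877, minus strand), had 0 counts in all 3 sgNT tumours. The sgUhrf1 tumours held 106, 208 and 113 counts, or 18.8, 33.0 and 24.8 CPM. Every sgUhrf1 tumour thus had the transcript and none of the sgNT tumours had a read of it. Taking 3 counts over the sgNT group as the floor, Slc28a3 was at least 161-fold higher in sgUhrf1 tumours (edgeR adjusted p = 0.000158). Its row covers 1904 of 7902 bp of exon and lies wholly inside the gene, so reads elsewhere in the transcript were not counted here. Slc28a3 was the only nucleoside carrier among the members, out of 7 in the annotation.

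Carriers of inorganic ions rose in 2 genes, fell in 1 and did not pass the test in 8 of the 11 tested. Slc26a9, a chloride transporter of stomach and airway epithelium (chromosome 1, 131744022 to 131771504, plus strand), held 2.38, 1.04 and 0 CPM in the sgNT tumours. It held 25.8, 79.4 and 69.3 CPM in the sgUhrf1 tumours. All 3 sgUhrf1 tumours were far above the sgNT tumours, with replicate 1 the lowest of them. The log2 fold change was 5.62 ± 0.74 (edgeR adjusted p = 0.000755), and it was 6.63 without sgNT replicate 1. A further row over 92 bp of other Slc26a9 exons rose as well, by 2.77 ± 0.38 (adjusted p = 0.000847), and with its rows summed the gene stood at 4.19 ± 0.43.

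Slc26a2, the sulfate transporter that supplies cartilage and other tissues for sulfation, stood at 70.8, 72.0 and 49.6 CPM in sgNT tumours. In sgUhrf1 tumours it stood at 191, 406 and 312 CPM. The highest sgNT tumour was well below the lowest sgUhrf1 tumour, and the log2 fold change was 2.24 ± 0.29 (edgeR adjusted p = 0.000714). The rows of both members of the Slc26 anion exchanger family thus rose, but more than 50% of each lies outside its gene. The Slc26a2 row has 2362 of 5478 bp within the gene, and the Slc26a9 row 2312 of 4912 bp. Slc12a7, a potassium-chloride cotransporter that lets cells lose volume, went the other way. It held 29.5, 52.5 and 44.0 CPM in sgNT tumours and 21.6, 14.6 and 11.0 CPM in sgUhrf1 tumours, and fell by 1.41 ± 0.32 on the log2 scale (adjusted p = 0.00804). Slc12a2, the sodium-potassium-chloride cotransporter that loads chloride into secretory cells, differed by -0.18 ± 0.35 on that scale (adjusted p = 0.705). It held 21.9, 26.2 and 20.9 CPM against 23.2, 27.0 and 10.3 CPM, and only sgUhrf1 replicate 3 lay below the sgNT range. Without that tumour the log2 fold change was 0.12.

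Slc9a4, a sodium-proton exchanger of stomach and kidney, was too sparse for the test. It had 0 counts in each sgNT tumour and 7, 46 and 14 counts in the sgUhrf1 tumours, at least 25.3-fold higher on the same floor. It was called higher by DESeq2, by edgeR without the filter on low counts and by the fit without the muscle-rich pair. Its counts came from the sgUhrf1 tumours alone, so the choice of members favoured such a difference. The 3 bicarbonate carriers Slc4a2, Slc4a4 and Slc4a5 were not called, at log2 fold changes of 0.59, 0.82 and 0.84.

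**Figure D2:**
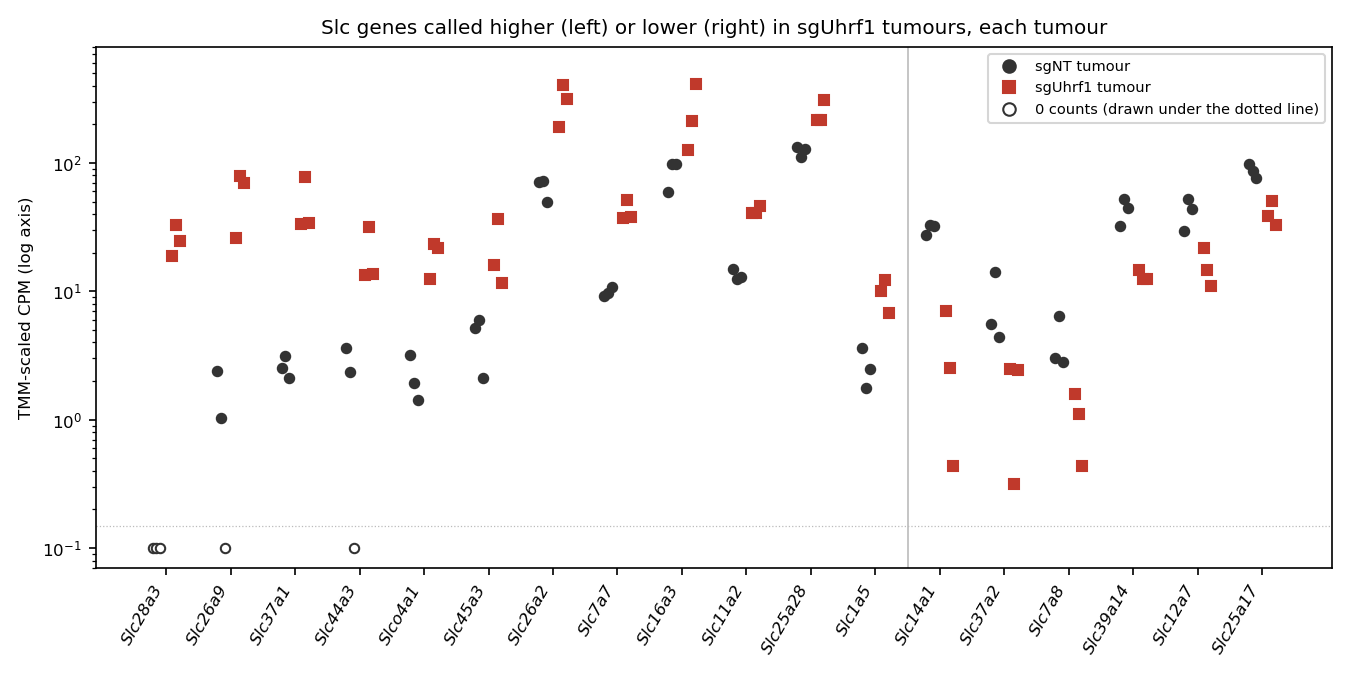
TMM-scaled CPM (log axis) in each of the 6 tumours for 18 Slc genes, sgNT as dark circles and sgUhrf1 as red squares, with 12 genes called higher on the left and 6 called lower on the right. Open circles under the dotted line are tumours with 0 counts, and for every gene drawn the circles and squares occupy separate ranges.

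Sugar and sugar phosphate carriers rose in 4 of 6 tested genes and fell in 1. The 3 members of the Slc37 family, placed in this class by family number, did not move together. Slc37a1 (chromosome 17, 31286792 to 31350739, plus strand) held 2.53, 3.11 and 2.13 CPM in sgNT tumours. In sgUhrf1 tumours it held 33.5, 77.1 and 33.9 CPM, with replicate 2 the highest. Its log2 fold change was 4.20 ± 0.42 (edgeR adjusted p = 0.000222), in a 493 bp row inside the gene, 231 bp of it exon.

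Slc37a2, known from macrophages and one of the genes whose promoter is printed above, fell. It held 5.54, 14.1 and 4.43 CPM in sgNT tumours and 2.48, 0.317 and 2.42 CPM in sgUhrf1 tumours. The log2 fold change was -2.23 ± 0.71 (edgeR adjusted p = 0.0339), with sgNT replicate 2 well above the rest. Without that tumour the log2 fold change was -1.56 (adjusted p = 0.165). The adjusted p was 0.164 without the muscle-rich pair and 0.0501 to 0.0619 without sgUhrf1 replicate 1, 2 or 3, and the gene passed in 8 of 14 other fits that tested it. Slc37a3 was higher in its most-counted row by 1.01 ± 0.25 (adjusted p = 0.0115), while another row over 158 bp of its exons had a value of -0.85 ± 0.43 (adjusted p = 0.140). The adjusted p of the first row was 0.0601 without sgNT replicate 2 and 0.115 without the muscle-rich pair, and with the rows of Slc37a3 summed it was 0.0716. Of the 5409 bp of that most-counted row, 1191 bp lie within Slc37a3.

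Slc45a3, a proton-coupled sugar transporter known as prostein from prostate epithelium, held 5.23, 5.93 and 2.13 CPM against 15.9, 36.7 and 11.7 CPM. It rose by 2.27 ± 0.52 on the log2 scale (adjusted p = 0.00869), and by 1.62 without sgUhrf1 replicate 2. Of its 7187 bp row, 3092 bp lie within Slc45a3 and 278 bp are its exon. The overlap with introns outside Slc45a3 came to 3943 bp, and strand was not used in the counting. Slc5a6, which falls in this class by family number but carries biotin and pantothenate, rose by 0.95 ± 0.31 (adjusted p = 0.0374). It passed in 6 of 15 other fits, and leaving out any tumour other than sgNT replicate 3 gave an adjusted p of 0.0674 to 0.153. Without the muscle-rich pair it was 0.232. Only 489 bp of the 7580 bp Slc5a6 row lie within the gene, all of them exon. Slc2a4, the insulin-responsive glucose transporter of muscle and fat, held 0.158, 2.52 and 0.709 CPM in sgNT tumours and 6.02, 6.03 and 2.42 CPM in sgUhrf1 tumours. Its groups overlapped and its log2 fold change of 2.06 ± 0.77 did not pass (adjusted p = 0.0596). The 2 tumours rich in muscle RNA are the sgNT tumour with its highest value and one of the 2 highest sgUhrf1 tumours, and without that pair Slc2a4 was called higher, at 3.26 ± 0.96 (adjusted p = 0.0483). It was also called without sgNT replicate 2 alone (3.43 ± 0.86, adjusted p = 0.0234), by limma-voom and with no filter on low counts.

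Carriers of monocarboxylates were all on the higher side, with 2 of 3 called. Slc16a3 exports lactate from glycolytic cells (chromosome 11, 120948480 to 120960868, plus strand). It held 59.2, 98.6 and 98.2 CPM in sgNT tumours and 127, 211 and 414 CPM in sgUhrf1 tumours. The sgUhrf1 tumours were spread widely, but the lowest exceeded every sgNT tumour. The log2 fold change was 1.55 ± 0.40 (edgeR adjusted p = 0.0138), and without sgNT replicate 1 the adjusted p was 0.0555. A second row over 95 bp of its exons gave -0.13 ± 0.33 (adjusted p = 0.786), so the rise was seen in one of its 2 rows. Slc16a6, a monocarboxylate carrier linked to ketone body export, held 7.44, 5.48 and 3.54 CPM against 16.3, 19.8 and 14.3 CPM. It rose by 1.61 ± 0.35 (adjusted p = 0.00672, or 0.0677 with the muscle-rich pair left out).

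Amino acid and amine carriers were split, with 3 higher, 3 lower and 7 not past the threshold. Light chains of the heteromeric transporters, which pair with the heavy chain Slc3a2, went both ways. Slc7a7, which exchanges cationic for neutral amino acids in gut, kidney and macrophages, held 9.18, 9.64 and 10.8 CPM in sgNT tumours. It held 37.5, 51.9 and 38.3 CPM in sgUhrf1 tumours. Replicates lay close together in both groups, and the log2 fold change was 2.11 ± 0.25 (edgeR adjusted p = 0.000443). Its row is only 59 bp long, all of it exon.

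Slc7a6, the more widely expressed relative of Slc7a7, rose by 0.60 ± 0.18 (adjusted p = 0.0269). It passed in 6 of 15 other fits, and leaving out any tumour other than sgUhrf1 replicate 3 gave an adjusted p of 0.0666 to 0.134. Without the muscle-rich pair it was 0.232. Slc7a8, a light chain for neutral amino acids at the basolateral side of epithelia, fell. It held 3.01, 6.37 and 2.84 CPM in sgNT tumours and 1.59, 1.11 and 0.440 CPM in sgUhrf1 tumours, lower by a log2 fold change of -1.91 ± 0.60 (adjusted p = 0.0310). It passed in 9 of 14 other fits. The adjusted p was 0.166 without sgNT replicate 2, 0.145 without the muscle-rich pair, and 0.0565 to 0.0747 when sgNT replicate 3 or either of sgUhrf1 replicates 2 and 3 was absent. Of the 2378 bp Slc7a8 row, 1083 bp lie within the gene. Slc7a11, the cystine-glutamate exchanger, held 2.85, 2.22 and 1.77 CPM against 6.02, 3.33 and 3.96 CPM. The groups did not overlap, but the log2 fold change of 0.95 ± 0.45 did not pass (adjusted p = 0.125).

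The heavy chain Slc3a2 itself held 130, 134 and 181 CPM in sgNT tumours and 131, 117 and 79.4 CPM in sgUhrf1 tumours. The groups overlapped, with a log2 fold change of -0.44 ± 0.23 (adjusted p = 0.154). Slc1a5, the sodium-dependent glutamine transporter of proliferating cells, held 3.64, 1.78 and 2.48 CPM in sgNT tumours and 10.1, 12.2 and 6.82 CPM in sgUhrf1 tumours. It rose by 1.88 ± 0.43 (edgeR adjusted p = 0.00828). With the 2 muscle-rich tumours left out, the adjusted p was 0.0957.

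Slc43a2, a facilitator of large neutral amino acids, held 45.1, 62.0 and 53.2 CPM in sgNT tumours and 37.5, 21.7 and 16.7 CPM in sgUhrf1 tumours. Its log2 fold change was -1.07 ± 0.31 (adjusted p = 0.0215), and sgUhrf1 replicate 1 stood closest to the sgNT range. Its adjusted p with either of sgNT replicates 2 and 3, or sgUhrf1 replicate 2, left out was 0.0535 to 0.0779. Slc18b1, a vesicular polyamine transporter, held 13.3, 10.7 and 14.2 CPM against 3.72, 7.78 and 5.72 CPM. Its log2 fold change was -1.14 ± 0.36 (adjusted p = 0.0319), and another row over 306 bp of its exons fell by 2.43 ± 0.50 (adjusted p = 0.00521). The most-counted row passed in 8 of 15 other fits, and of the tumours left out singly it kept the call only without sgUhrf1 replicate 2, the others giving an adjusted p of 0.0568 to 0.0965. Without the muscle-rich pair it was 0.164. Slc6a20a, a proline and imino acid carrier of gut and kidney, did not pass the filter and held 1, 0 and 2 counts in sgNT tumours. It held 52, 59 and 3 counts in sgUhrf1 tumours, so replicate 3 resembled the sgNT tumours. The ratio of the summed counts, scaled for library size, was 43.1, with a 95% interval of 14.4 to 212 that covers counting error only. The 4 tested members of the Slc38 family of neutral amino acid carriers, from -0.91 to 0.48, did not pass.

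Lipid, organic anion and organic cation carriers had 3 of 7 tested genes higher and none lower. Slco4a1, a carrier of thyroid hormones and other organic anions (chromosome 2, 180456245 to 180474867, plus strand), held 3.17, 1.93 and 1.42 CPM in sgNT tumours. It held 12.4, 23.2 and 21.8 CPM in sgUhrf1 tumours. The lowest sgUhrf1 tumour was above every sgNT tumour, and the log2 fold change was 3.12 ± 0.42 (edgeR adjusted p = 0.000806). Another of its rows rose by 2.43 ± 0.59 (adjusted p = 0.0110). Slc22a21, a carnitine carrier of the organic cation family, held 8.39, 5.34 and 7.09 CPM against 15.9, 24.1 and 25.7 CPM and rose by 1.66 ± 0.32 (adjusted p = 0.00385). Slc22a15 rose by 1.65 ± 0.42 (adjusted p = 0.0138). The adjusted p of Slc22a15 was 0.0589 without sgNT replicate 2 and 0.106 without the muscle-rich pair. Slc22a23 had a log2 fold change of -0.82 in its most-counted row, which did not pass, while another row fell by 2.18 ± 0.53 (adjusted p = 0.0107).

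Choline and vitamin carriers had 1 of 4 tested genes higher and none lower. Slc44a3, a choline transporter-like protein (chromosome 3, 121459528 to 121532404, minus strand), held 3.64, 2.37 and 0 CPM in sgNT tumours. It held 13.5, 31.6 and 13.6 CPM in sgUhrf1 tumours. It rose by 3.25 ± 0.79 (edgeR adjusted p = 0.0106), and by 3.93 without sgNT replicate 1. The others, the folate carrier Slc46a1, its relative Slc46a3 and the ascorbate carrier Slc23a2, lay between -0.79 and -0.15 and did not pass.

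Metal ion carriers, read from their most-counted rows, rose in 1 gene, fell in 2 and did not pass in 6. Slc11a2, the proton-coupled importer of ferrous iron (chromosome 15, 100387898 to 100425072, minus strand), held 14.9, 12.5 and 12.9 CPM in sgNT tumours. It held 40.7, 40.8 and 46.6 CPM in sgUhrf1 tumours, higher by a log2 fold change of 1.67 ± 0.22 (edgeR adjusted p = 0.000732). Replicates of each group were within a narrow range. Only 455 bp of its 4375 bp row lie within Slc11a2, all of them exon, and the row also runs through introns of other genes.

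Slc39a14, which imports zinc, iron and manganese (chromosome 14, 70303469 to 70351425, minus strand), held 32.3, 52.3 and 44.7 CPM in sgNT tumours. It held 14.7, 12.5 and 12.5 CPM in sgUhrf1 tumours. The log2 fold change was -1.70 ± 0.25 (edgeR adjusted p = 0.00125), and it passed in all 15 other fits. Its 4406 bp row lies inside the gene, 3283 bp of it exon. The 3 other members of the Slc39 zinc importer family, Slc39a3, Slc39a9 and Slc39a10, had log2 fold changes from -0.12 to 0.16.

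Slc30a5, which moves zinc into the secretory pathway, gave opposite answers at 2 places. Its most-counted row, over 622 bp of exon, held 30.7, 39.7 and 47.0 CPM against 17.9, 18.1 and 10.1 CPM, a log2 fold change of -1.34 ± 0.29 (adjusted p = 0.00688, or 0.0515 without the muscle-rich pair). Another row over 220 bp of its exons was called higher, by 1.04 ± 0.31 (adjusted p = 0.0276). With the rows of Slc30a5 summed the log2 fold change was -0.67 ± 0.21 (adjusted p = 0.0324).

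Mitochondrial carriers of the Slc25 family were the best covered, with 11 genes tested, 2 higher and 3 lower. Slc25a28, the mitoferrin that brings iron into mitochondria (chromosome 19, 43663801 to 43674881, minus strand), held 133, 112 and 130 CPM in sgNT tumours. It held 218, 214 and 310 CPM in sgUhrf1 tumours and rose by 0.99 ± 0.20 (edgeR adjusted p = 0.0046). Slc25a46, an outer membrane protein that shapes mitochondria, rose by 0.87 ± 0.24 (adjusted p = 0.0194). Its adjusted p was 0.0793 without sgNT replicate 2, 0.0757 without sgNT replicate 3 and 0.0888 without the muscle-rich pair.

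On the lower side, Slc25a13, the aspartate-glutamate carrier of the malate-aspartate shuttle, is one of the few genes whose row covers every exon, 3798 bp in all. It held 73.8, 81.5 and 68.9 CPM in sgNT tumours and 43.6, 41.1 and 34.7 CPM in sgUhrf1 tumours, lower by a log2 fold change of -0.91 ± 0.19 (edgeR adjusted p = 0.00514). Slc25a17, a peroxisomal carrier of coenzyme A and related cofactors, held 98.5, 86.6 and 75.9 CPM against 38.4, 50.6 and 33.0 CPM. Its log2 fold change was -1.09 ± 0.22 (adjusted p = 0.00448). Of its 7595 bp row, 5180 bp lie within Slc25a17 and 219 bp are its exon. In both genes the lowest sgNT tumour was above the highest sgUhrf1 tumour. With the 2 muscle-rich tumours left out, the adjusted p was 0.0691 for Slc25a13 and 0.0604 for Slc25a17.

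Slc25a25, an ATP-magnesium and phosphate carrier, fell by 0.80 ± 0.27 (adjusted p = 0.0415). It passed in 6 of 15 other fits, and leaving out any tumour other than sgNT replicate 1 gave an adjusted p of 0.0644 to 0.157. Without the muscle-rich pair it was 0.250. Slc25a51, which brings NAD into mitochondria, had the most counts of any member, 10129, over its 5510 bp of exon. It held 284, 312 and 298 CPM in sgNT tumours and 267, 270 and 296 CPM in sgUhrf1 tumours. The groups overlapped and the log2 fold change was -0.10 ± 0.15 (adjusted p = 0.632), so at this depth no difference was detected in the gene with the smallest error.

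Nucleotide sugar carriers of the secretory pathway had 1 of 4 tested genes higher. Slc35d1, which supplies UDP-glucuronic acid and UDP-N-acetylgalactosamine for chondroitin sulfate, held 23.8, 20.2 and 22.0 CPM in sgNT tumours and 35.4, 59.5 and 60.5 CPM in sgUhrf1 tumours. It rose by 1.24 ± 0.25 (edgeR adjusted p = 0.00523). Of its 2144 bp row, 1536 bp lie within the gene and only 72 bp are its exon. Slc14a1, the urea channel of red cells and vasculature, had the largest fall of all members. It held 27.2, 32.8 and 32.1 CPM in sgNT tumours and 7.08, 2.54 and 0.440 CPM in sgUhrf1 tumours. The sgNT tumours were tightly grouped and sgUhrf1 replicate 3 was the lowest. The log2 fold change was -3.16 ± 0.62 (edgeR adjusted p = 0.00433), and the call held in all 15 other fits. The value was -4.27 without sgUhrf1 replicate 1, -2.68 without sgUhrf1 replicate 3 and -4.23 without the muscle-rich pair. Of its 1156 bp row, only 179 bp lie within Slc14a1, all of them exon.

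**Figure D3:**
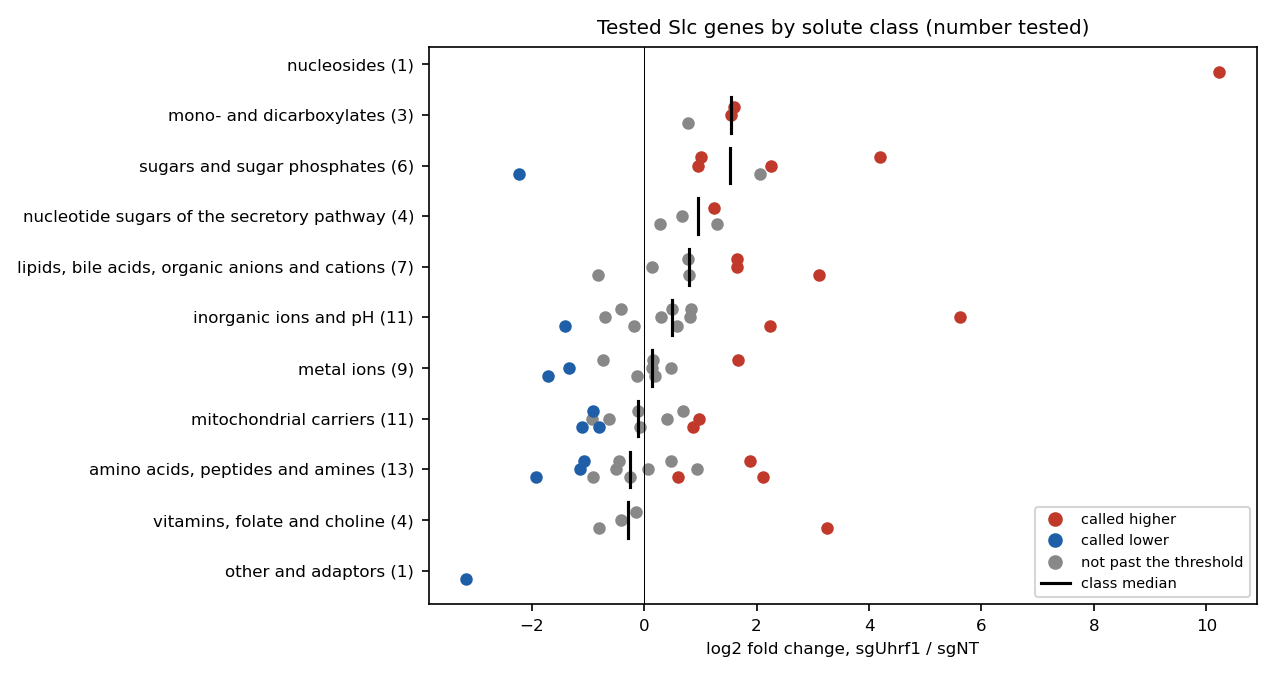
Log2 fold change (sgUhrf1 over sgNT, x axis) of the 70 tested Slc genes by solute class, 1 point per gene, with the number tested in parentheses and a black bar at the class median where a class has more than 1 gene. Class medians run from -0.28 for vitamins, folate and choline to 1.55 for mono- and dicarboxylates among classes with at least 3 genes. The amino acid, inorganic ion, metal ion, mitochondrial and sugar classes hold called genes on both sides of 0.

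The tumours of a group were not alike across the members. The summed CPM of the tested Slc genes was 1997, 2105 and 2090 in sgNT tumours and 2417, 2902 and 2812 in sgUhrf1 tumours. Of the 6 tumours, sgUhrf1 replicate 2 was the highest for 20 of the 70 genes, more than any other. In the same group, sgUhrf1 replicate 3 was the lowest of the 6 for 24 genes and the highest for 14, so it held extremes on both sides. It also had the smallest TMM scaling factor, 0.809, against 0.988 to 1.09 in the other tumours.

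**Figure D4:**
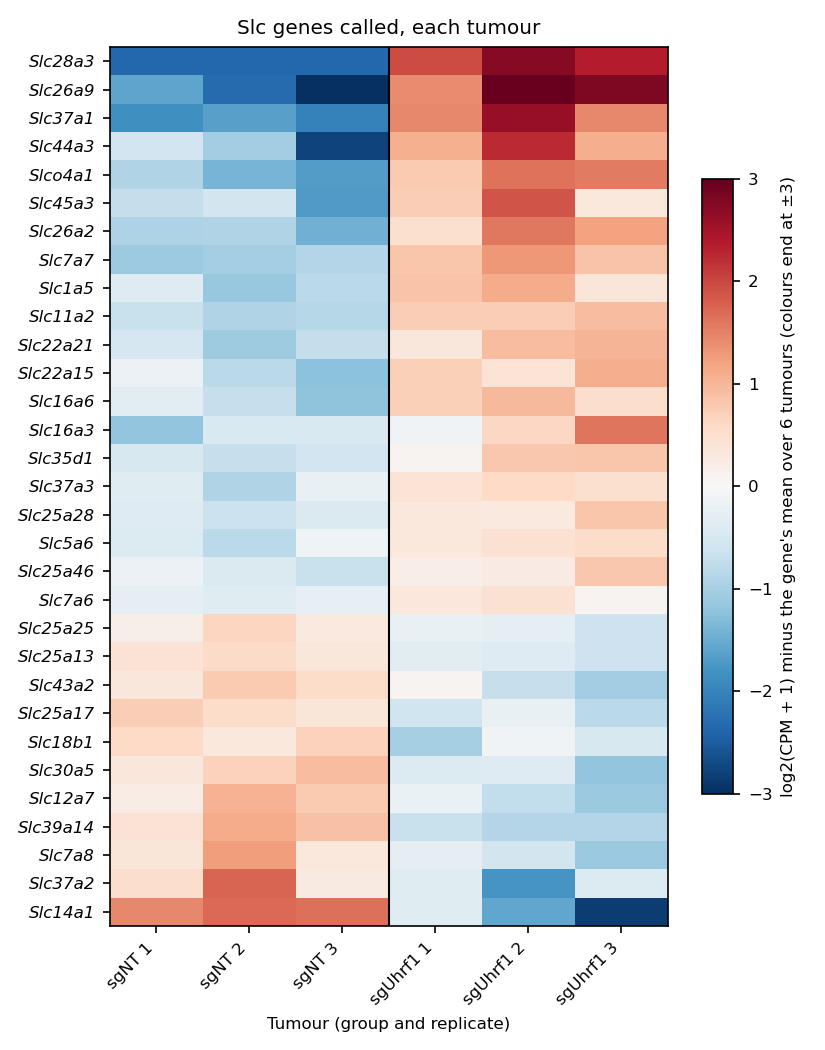
Heat map of the 31 called Slc genes (rows) in the 6 tumours (columns), coloured by log2(CPM + 1) minus the gene's mean over the tumours, with colours ending at ±3. The 20 genes called higher are mostly red in the sgUhrf1 columns and the 11 called lower mostly blue, apart from near-white cells such as Slc16a3 and Slc43a2 in sgUhrf1 replicate 1, with the strongest colours for Slc28a3, Slc26a9 and Slc37a1 at the top and Slc14a1 at the bottom.

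Other rows over the same genes gave a check that the choice of row did not use. Among 15 members, 17 further rows were tested, and 12 had the same sign as the most-counted row while 5 had the opposite sign. For called members there were 6 such rows, of which 3 were called the same way (Slc26a9, Slco4a1 and Slc18b1), 1 was called the opposite way (Slc30a5) and 2 did not pass (Slc16a3 and Slc37a3). In 3 genes a further row was called where the most-counted row was not. These were Slc22a23, Slc39a9, whose row over 57 bp rose by 1.28 ± 0.25 (adjusted p = 0.00435), and Slc4a5, whose further row held 0 counts in sgNT tumours and 34, 15 and 10 in sgUhrf1 tumours. With all rows of a gene summed, 21 members were higher and 12 lower, and 30 of the 31 calls were kept. With at least 200 bp of exon required, 55 of 58 members were tested, 17 were higher and 10 lower.

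**Figure D5:**
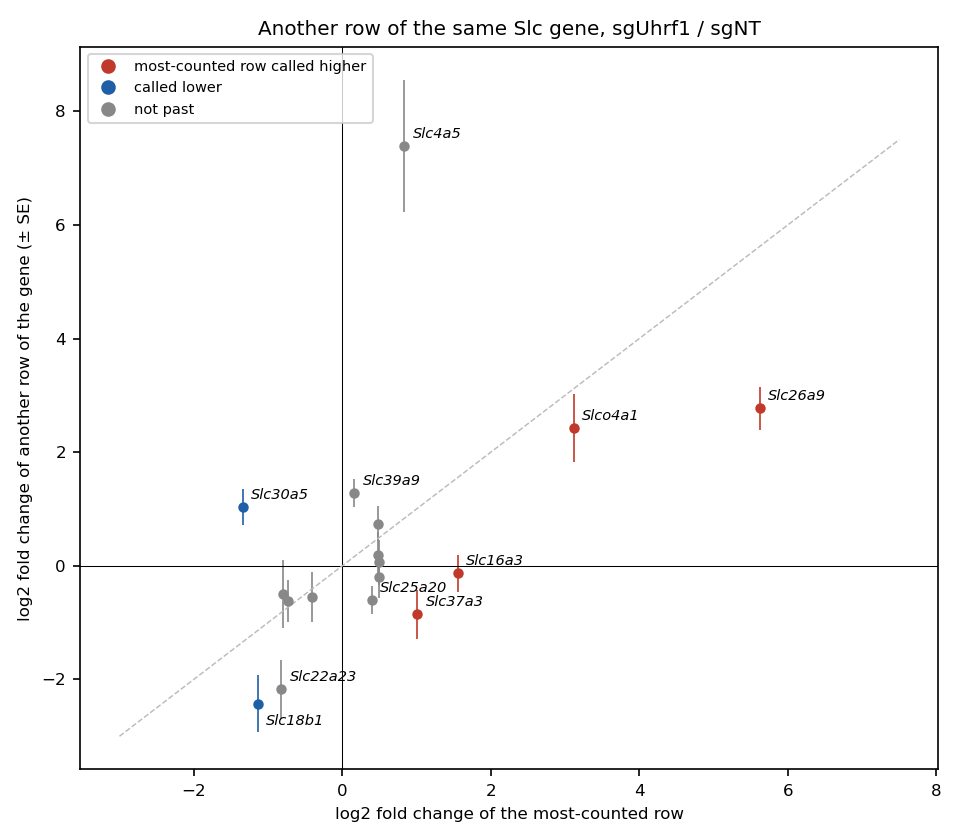
Log2 fold change of the most-counted row (x axis) and of each further tested row of the same gene (y axis, with its standard error) for 15 Slc genes, with a dashed line of equality and colours for the call of the most-counted row. Slc26a9, Slco4a1 and Slc18b1 lie in quadrants of equal sign, Slc30a5, Slc16a3 and Slc37a3 in quadrants of opposite sign, and the fitted value of the further Slc4a5 row depends on the prior count because its sgNT tumours held 0 counts.

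Lists of Slc genes known from particular tissues were also read out. Of 30 carriers of gut and kidney absorptive epithelium, 12 had a row of their own and 7 were tested. Slc28a3 and Slc7a7 rose, Slc7a8 fell and 4 did not pass, with a median log2 fold change of 0.82. Gut epithelium markers, with a row for 8 of 13, summed to 303 to 486 CPM in sgNT tumours and 1824 to 3796 CPM in sgUhrf1 tumours, and 6 of 7 tested were higher. Muc3 was at 0 counts in all sgNT tumours. Simple epithelium markers, with a row for 3 of 8, summed to 155 to 436 CPM and 1681 to 2811 CPM, and both tested genes, Cdh1 and Krt7, were higher. The part of these epithelial genes in the carriers' values was not tested.

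Of 12 Slc genes known from macrophages and other leukocytes, 4 were tested, with Slc7a7 higher, Slc37a2 and Slc43a2 lower and a median log2 fold change of -0.74. Macrophage markers, with a row for 5 of 13, summed to 505 to 811 CPM in sgNT tumours and 285 to 967 CPM in sgUhrf1 tumours, and none of 5 was called. T cell markers, with a row for 7 of 14, summed to 242 to 278 CPM and 373 to 738 CPM, all 5 tested genes were higher and Cd6 was at 0 counts. The part of leukocytes in these carriers' values was not tested. Of 16 carriers linked to proliferation and hypoxia, 6 were tested, with Slc16a3 and Slc1a5 higher, Slc25a13 lower and a median of 0.25. Of 23 neuronal carriers, 11 had a row and 2 were tested, and neither passed.

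Genes that work with the carriers moved in both directions too. Of 28 partners and trafficking proteins, 4 were tested and 3 fell. Basigin (Bsg), the chaperone that takes lactate carriers such as Slc16a3 to the cell surface, fell by 1.20 ± 0.30 on the log2 scale (edgeR adjusted p = 0.0127). Oxsr1, a kinase that regulates the Slc12 chloride cotransporters, fell by 1.72 ± 0.32, and Ahcyl1, a regulator of bicarbonate transport, fell by 0.51 ± 0.16. Among 24 regulators of transporter genes, 7 were tested, 3 rose and 1 fell. Among those that rose were the hepatic and intestinal factor Hnf4a, by 3.32 ± 0.82, and the bile acid receptor Nr1h4, by 3.24 ± 0.41. Srebf2, which drives sterol synthesis and uptake, fell by 0.88 ± 0.22.

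The ATP-driven pumps gave a comparison with transporters that are not solute carriers. Of 50 ABC transporters, 21 were tested, 3 rose and 7 fell, with a median log2 fold change of -0.40. Abcc1, an exporter of glutathione conjugates, fell by 2.43 ± 0.33, Abcb1b, which encodes P-glycoprotein, fell by 2.13 ± 0.42, and Abca8b rose by 2.37 ± 0.65. Of 41 cation pump ATPases, 14 were tested, 4 rose and 4 fell, with a median of -0.04. Atp8b1, a phospholipid flippase of epithelia, rose by 3.02 ± 0.37, Atp11b, another flippase, fell by 2.68 ± 0.42, and the copper pump Atp7b rose by 2.59 ± 0.72. Neither of the 2 tested aquaporins of 11 passed. The difference between these lists and the solute carriers was not tested.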

How the data were processed

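Poly(A) RNA from 6 tumours, 3 per group, was sequenced as paired-end reads, per the labels' protocols. The deposited values are raw read counts per gene. The submitters' processing notes name fastp, STAR, featureCounts and GRCm38, and per the file headers the authors counted with featureCounts 2.0.1 on GENCODE M26 exons, by gene name and without strand. No source used here gives the trimming and alignment settings. Because M26 follows another build, rows were renamed with GENCODE vM21 exons (bedtools 2.31.1), leaving out small RNA genes. Rows over exactly 1 gene numbered 13437 and held 40.3% of counts, shared rows held 57.85% and rows over no gene 1.087%.

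Total counts were 5462555 to 6375069 per tumour. The main test was edgeR 4.0.16 (R 4.3.3): TMM scaling, filterByExpr, quasi-likelihood F test and Benjamini-Hochberg adjustment over 10503 rows, called at an adjusted p of 0.05. The script was tested on simulated data. Alternatives were RLE scaling, DESeq2 1.42.0, limma-voom 3.58.1, a robust fit, other filters, a replicate block, left-out tumours, summed rows and at least 200 bp of exon. Replicates differed from each other by more than sampling noise.

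The members, lists and alternatives were chosen with earlier results of these data known. Named genes are the called members with the 8 largest changes each way, up to 2 further called per solute class, the 5 most counted, and a fixed set of carriers known from tumours, gut and leukocytes; other members named were chosen after their values were seen. Intervals and floors cover counting error only. RefSeq promoter windows were counted for 2 motifs and for CG. The values of 1 regulator gene are not reported here.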

Additional observations from a re-analysis of the deposited data

How the results depend on the processing

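All 31 called Slc genes kept their direction in each of the 15 other fits that tested them (14 for Slc37a2 and Slc7a8), and 15 passed the threshold in every one. RLE scaling, DESeq2, limma-voom, a robust fit, both other filters, summed rows and the 200 bp minimum left the counts of higher and lower members within 1.5 times the reported ones. Leaving out 1 tumour at a time gave 18 to 21 members higher and 6 to 12 lower, and 1431 to 2020 of all rows higher and 1259 to 1908 lower. Fewer samples were fitted there, and the lowest counts came without sgNT replicate 2. Without both muscle-rich tumours 4 members were lower, and 1094 of all rows were higher and 771 lower, so that 58.7% of all calls were upwards. Slc12a2, which was not called, ranged from -0.46 to 0.12 over these fits, the positive value without sgUhrf1 replicate 3, and the cause was not tested. Called genes that passed in fewer than 10 of the other fits were Slc18b1, Slc25a25, Slc37a2, Slc5a6, Slc7a6 and Slc7a8. Replicate numbers did not pair the tumours: deviations of same-numbered tumours correlated at -0.0795, -0.0209 and 0.05, and not every tumour correlated best with its own number. With the replicate block, 19 members were higher and 8 lower. At this depth, the 5 tested members under 100 counts had standard errors of 0.55 to 0.80 on the log2 scale, and 4 members could not be tested in the reported fit.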
